A study of Mus musculus with 3 samples.

Results

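The G2 and mitosis genes described here are a list of 50 genes whose products carry a cell from the end of DNA synthesis through division. The rule that picks them is a list of symbols and uses no measured value, but the list was drawn up with earlier results of these data known. A gene was measured by the probe sets that the platform annotation pairs with its symbol and with no other. By that rule 47 of the 50 genes were found among 12393 genes, through 86 of 22690 probe sets, and Ccnb1, Cdca8 and Espl1 were not analysed here. The members were read in C2C12 cells, a mouse myoblast line grown in medium with fetal calf serum. The study had 3 groups: cells transfected with DGK-zeta, the zeta isoform of diacylglycerol kinase, which turns diacylglycerol into phosphatidic acid; cells transfected with EGFP, a fluorescent protein; and untreated cells. All 3 samples carry the label 12 h, cells had been in 6-well plates for 18 h before transfection, and FuGene was the transfection reagent. Each group is 1 sample on 1 Affymetrix array, so no difference below has a replicate check, no test was made and no p-values exist. The sources used here do not give the vector, its promoter or the share of cells that took it up. In such bulk RNA, fewer cells of a kind and less RNA per cell cannot be told apart.

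Entry into mitosis is driven by the kinase Cdk1 bound to A-type and B-type cyclins, which the Cdc25 phosphatases switch on and the kinases Plk1 and Aurora A reinforce. The spindle checkpoint then holds the anaphase-promoting complex in check until every kinetochore is attached, after which cyclin B and securin are degraded and the cell divides. Transcripts of these genes are low in resting and early G1 cells and high in G2 and mitosis, and much of this rhythm is set at the promoter by the MuvB complexes and by Foxm1. The list is therefore often used as a sign of how many cells of a culture are close to division. The title of the series concerns a cell cycle arrest that depends on nuclear DGK-zeta, so the level of these transcripts bears on the question it asks.

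Signals were linear probe set intensities, and a value counted as measured at or above a floor of 107, the median of all values pooled. A ratio is the log2 ratio of 2 signals of a gene's brightest probe set, with lower values set to the floor. Of the 47 members 46 were measured on all 3 arrays, the exception being Cenpe, as against 6434 of 12393 genes overall. Dgkz had a signal of 13466 in DGK-zeta cells, 1053 in EGFP cells and 1500.1 in untreated cells. Of 6 myoblast markers 5 were measured on all 3 arrays, while Myod1 lay under the floor on each of them. None of the 6 markers of differentiated muscle was measured on all 3 arrays, and their signals summed to 148 for DGK-zeta, 196 for EGFP and 189 for untreated cells. None of the endothelial, adipocyte or macrophage and blood markers was measured on all 3 arrays either. Signals of the macrophage and blood markers summed to 144 for DGK-zeta, 151 for EGFP and 197 for untreated cells. Endothelial markers summed to 69.8 for DGK-zeta, 53.7 for EGFP and 29.6 for untreated cells, and adipocyte markers to 31.7 for DGK-zeta, 23.2 for EGFP and 9.62 for untreated cells. All 3 endothelial markers and the 2 adipocyte markers with a probe set lay under the floor on every array, so these sums hold no measured signal. The ratio of the 3′ to the 5′ control probe set of Actb was 2.55 in DGK-zeta cells, 1.43 in EGFP cells and 1.27 in untreated cells, so this sign of RNA quality moves with both comparisons of the DGK-zeta array, and its part in the results was not tested. The same ratio for Gapdh was 0.931 in DGK-zeta cells, 0.902 in EGFP cells and 0.841 in untreated cells.

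The G2 and mitosis transcripts of DGK-zeta cells were spread around those of EGFP cells with no common direction. Foxm1, Nuf2 and Cdc25b were lower by at least 1.5-fold and Spc25 was higher, and the other 42 of 46 measured members lay between these limits. The median log2 ratio was 0.02 for the members, with 20 of 46 (43.5%) below 0. For all 6926 genes measured on at least 1 of the arrays it was -0.02, with 52.6% below 0. The members at least 1.5-fold lower were 3 of 46 (6.52%), where 11.6% of all genes were, and those at least 1.5-fold higher were 1 of 46 (2.17%), where 3.51% of all genes were. No member was 2-fold apart, where 2.84% of all genes were at least 2-fold lower and 0.347% higher. The members' median lay above 0 with each of the 4 scalings tried. When all named probe sets were given equal medians, the median of all genes shifted by 0.36 and became 0.33, and that of the members became 0.39. No member was then at least 1.5-fold lower, beside 3.81% of all genes, with Foxm1 at -0.46, Nuf2 at -0.45 and Cdc25b at -0.30, and 11 of 46 were at least 1.5-fold higher (23.9%), beside 24.3% of all genes. The choice of probe set turned the members' median, to -0.077 with the mean over a gene's sets, -0.27 with the second-brightest set and -0.050 without sets of suffix _x_at, _s_at or _a_at. The same scaling raises ratios over untreated cells by 0.26, so weakly negative values given below turn positive under it, among them Kif11 over EGFP (0.23), Prc1 over EGFP (0.13) and Cdc25b over untreated cells (0.11). Relative to all genes the members' median stood 0.05 higher as deposited, 0.05 higher with equal medians of either kind and 0.05 lower after quantile normalization (-0.05).

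Against untreated cells more members of the list were low in DGK-zeta cells. Cenpe, Kif11, Nuf2, Ube2c, Prc1 and Ncapd2 were lower by at least 1.5-fold, which is 6 of 47 members (12.8%) beside 9.93% of all genes. Spc25 and Ncaph were higher by at least 1.5-fold, 2 of 47 (4.26%) beside 7.09% of all genes. At a 2-fold limit 1 of 47 was lower, Cenpe, beside 2.8% of all genes, and none higher, beside 1.34%. The median log2 ratio was -0.12 for the members, with 29 of 47 (61.7%) below 0, and -0.02 for all 6866 genes, with 51.7% below 0. Giving all named sets equal medians turned the members' median to 0.14, but that of all genes then stood at 0.24. By that scaling 1 of 47 members was at least 1.5-fold lower (2.13%), beside 4.44% of all genes, and 9 were higher (19.1%), beside 19.1% of all genes. Relative to all genes the members' median was lower with each of the 4 scalings, at -0.11 as deposited, -0.15 after quantile normalization, -0.10 with equal medians over named probe sets and -0.10 over measured ones.

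EGFP cells, set against untreated cells, had a similar low median for the list. The median log2 ratio was -0.10 for the members, with 32 of 47 (68.1%) below 0, and 0.02 for all 6932 genes, with 46.3% below 0. Relative to all genes the members' median was -0.12 as deposited and -0.07 after quantile normalization. Cenpe and Kif11 were lower by at least 1.5-fold, 2 of 47 (4.26%) beside 1.51% of all genes, and no member was higher by that size, beside 4.13% of all genes. The comparisons share arrays, so a high value on the untreated array lowers both ratios that have it as the denominator. Among the 46 members measured on all 3 arrays, DGK-zeta cells had the lowest signal for 19 (41.3%), where this held for 41.1% of all such genes, and the highest for 17 (37.0%), where it held for 38.8%. The remaining 10 (21.7%) lay between the other arrays, beside 20.1% of all genes.

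**Figure D1:**
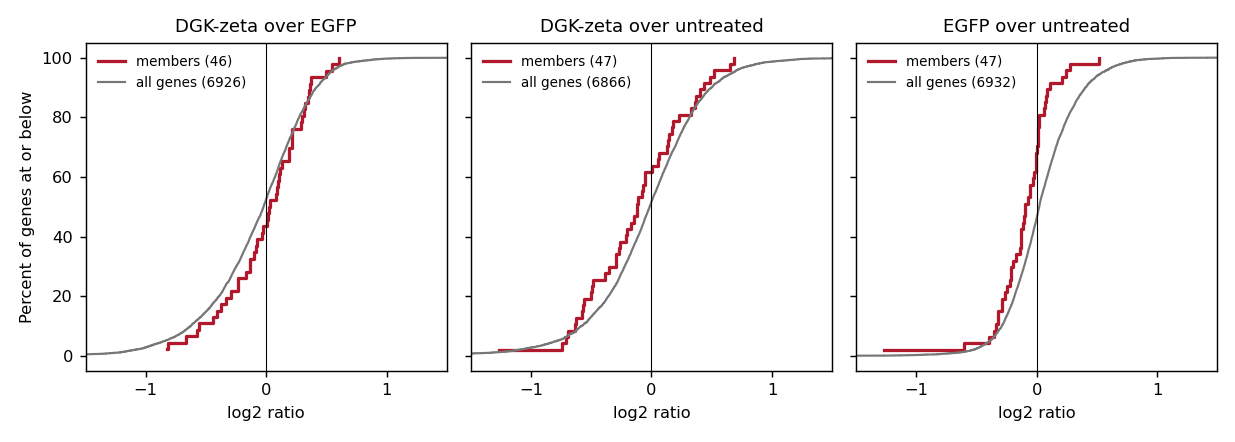
Cumulative share of genes (y axis, percent) at or below each log2 ratio (x axis) for the measured G2 and mitosis genes (red) and for all measured genes (grey) in the 3 comparisons, with 1 array per group. The red line runs near the grey one for DGK-zeta over EGFP (medians 0.02 and -0.02) and left of it over most of its range for EGFP over untreated (-0.10 and 0.02).

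An error for a single ratio can be had only within the arrays, from different probe sets of the same gene. Over 2245 genes whose 2 brightest probe sets were measured on all 3 arrays, 1 probe set alone had an SD of 0.40 in log2 units for DGK-zeta over EGFP, 0.50 for DGK-zeta over untreated and 0.27 for EGFP over untreated. It covers probes on 1 RNA extract and not the spread between cultures. Members with a ratio farther from 0 than this SD were 10 of 46 (21.7%) in the first comparison, 13 of 47 (27.7%) in the second and 11 of 47 (23.4%) in the third. The same shares of all genes were 31.0%, 23.4% and 30.6%. A 1.5-fold difference, 0.58 on the log2 scale, exceeds the SD of 0.40 over EGFP and lies close to that of 0.50 over untreated cells.

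**Figure D2:**
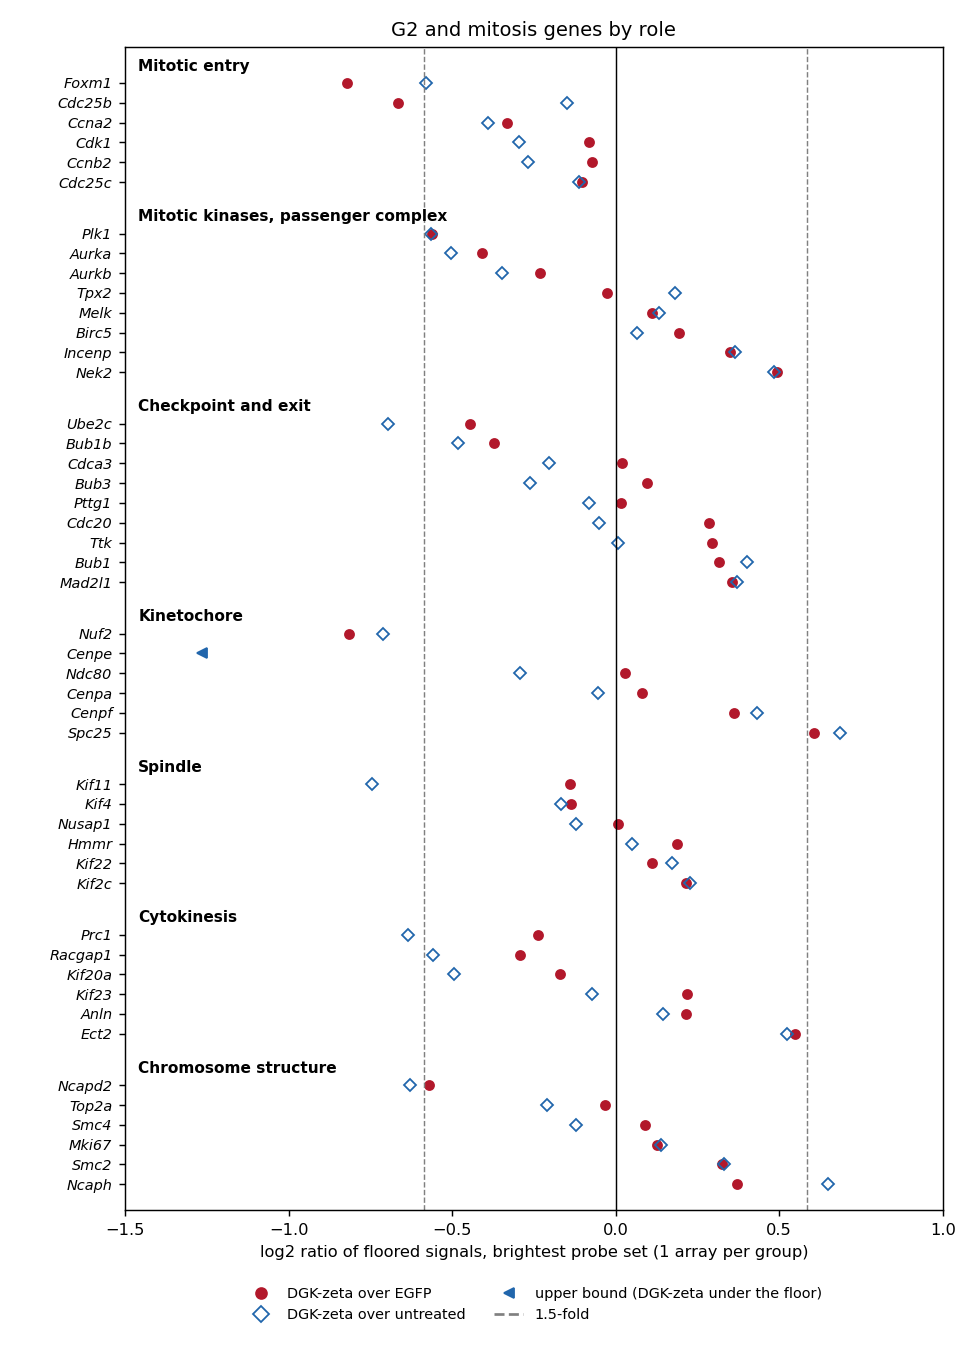
Log2 ratio of DGK-zeta over EGFP (filled red circles) and over untreated cells (open blue diamonds) for each of the 47 members, by role, from 1 array per group. Dashed lines mark 1.5-fold, the triangle for Cenpe is an upper bound, and all 6 members of mitotic entry lie left of 0 in both comparisons as deposited.

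In both comparisons of DGK-zeta cells, mitotic entry was the role group whose measured members all lay on 1 side as deposited. All 6 measured ones, out of 7 listed, were below 0 in DGK-zeta cells against EGFP, with a median of -0.22, and against untreated cells, with a median of -0.28. Of all genes 52.6% lay below 0 against EGFP and 51.7% against untreated cells, the shares to set beside the counts of each role group. All 6 also lay below the median of all genes in both comparisons with the deposited scaling and both kinds of equal medians, though equal medians of all named sets put 4 of the 6 above 0 against EGFP and 2 against untreated cells, and equal medians of measured sets 3 above 0 against EGFP. After quantile normalization 5 of 6 lay below the median of all genes against EGFP. Foxm1, a transcription factor that activates many G2 and mitosis genes, had signals of 348 in DGK-zeta cells, 616 in EGFP cells and 521 in untreated cells. DGK-zeta cells were the lowest, 1.77-fold below EGFP and 1.49-fold below untreated cells, the second just short of the 1.5-fold mark. Its other 2 measured probe sets had 328 and 270.3 in DGK-zeta cells, 576 and 552 in EGFP cells, and 534 and 484 in untreated cells. All 3 sets thus gave the same order, with log2 ratios between -1.03 and -0.81 against EGFP and between -0.84 and -0.58 against untreated cells. Under equal medians of all named sets the brightest stood at -0.46 against EGFP and -0.32 against untreated cells.

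Cdc25b, a phosphatase that activates Cdk1 at the start of mitosis, had signals of 548 in DGK-zeta cells, 870.2 in EGFP cells and 608 in untreated cells. Here the EGFP array stood apart from the others, and the 1.59-fold lower value of DGK-zeta against EGFP cells became 1.11-fold against untreated cells. Ccna2, which encodes cyclin A2, had 2847 in DGK-zeta cells, 3584 in EGFP cells and 3730.2 in untreated cells, and its second probe set 2477 in DGK-zeta cells, 3306 in EGFP cells and 3239 in untreated cells. Both sets were lower in DGK-zeta cells, with log2 ratios of -0.33 and -0.42 against EGFP and -0.39 from each set against untreated cells, which is less than the SD of a single probe set but for -0.42. Cdk1, the kinase at the centre of mitotic entry, had signals of 4306 in DGK-zeta cells, 4553 in EGFP cells and 5288 in untreated cells, with ratios of -0.08 over EGFP and -0.30 over untreated cells. Its partner Ccnb2, cyclin B2, had 1770.2 in DGK-zeta cells, 1862 in EGFP cells and 2131 in untreated cells, ratios of -0.07 over EGFP and -0.27 over untreated cells. Cdc25c, another phosphatase of Cdk1, was nearly level at 298 in DGK-zeta cells, 320 in EGFP cells and 321 in untreated cells.

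Mitotic kinases and the chromosomal passenger complex were divided, with 4 of 8 measured members (9 listed) below 0 against EGFP, a median of 0.04, and 3 of 8 below 0 against untreated cells, a median of 0.10. Plk1, the Polo kinase of centrosome maturation and mitotic entry, had a signal of 1053 in DGK-zeta cells, 1553 in EGFP cells and 1558 in untreated cells. The control arrays were level and DGK-zeta cells 1.47-fold below EGFP and 1.48-fold below untreated cells, and under equal medians of all named sets the log2 ratios of -0.56 in both comparisons became -0.20 over EGFP and -0.30 over untreated cells. Aurka, the Aurora kinase of the spindle poles, had 1514 in DGK-zeta cells, 2010.3 in EGFP cells and 2149 in untreated cells, with ratios of -0.41 over EGFP and -0.50 over untreated cells. Aurkb, the Aurora kinase of the passenger complex, had 993 in DGK-zeta cells, 1165 in EGFP cells and 1264 in untreated cells by its brightest set. The other set had 639 in DGK-zeta cells, 744 in EGFP cells and 638 in untreated cells, so that the order of the arrays differed between sets. Nek2, a kinase that separates centrosomes, was high instead, at 400.0 in DGK-zeta cells against 284 in EGFP and 286 in untreated cells, 1.41-fold above EGFP and 1.40-fold above untreated cells. Incenp, the scaffold of the passenger complex, had 4260.1 in DGK-zeta cells, 3343 in EGFP cells and 3308 in untreated cells by the brightest set, but 1101 in DGK-zeta cells, 1415 in EGFP cells and 1227 in untreated cells by the next. Its log2 ratios were thus 0.35 over EGFP and 0.36 over untreated cells by the brightest set, and -0.36 over EGFP and -0.16 over untreated cells by the next. The third Incenp set had 60.6 in DGK-zeta cells, under the floor, 165 in EGFP cells and 153 in untreated cells. With the floor its log2 ratios were -0.62 over EGFP and -0.52 over untreated cells, both upper bounds. Birc5 (survivin), Melk and Tpx2, an activator of Aurora A, lay between -0.03 and 0.19 in both comparisons by their brightest sets, and Tpx2 had -0.25 over EGFP and -0.43 over untreated cells by its second.

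Checkpoint genes and genes of mitotic exit had 2 of 9 measured members (10 listed) below 0 against EGFP, with a median of 0.09, and 6 of 9 below 0 against untreated cells, with a median of -0.08. The group thus sat on opposite sides of 0 in the comparisons, and EGFP cells themselves had 7 of 9 members below untreated cells, with a median of -0.22, beside 46.3% of all genes. Ube2c, the ubiquitin-conjugating enzyme of the anaphase-promoting complex, had signals of 3095 in DGK-zeta cells, 4215 in EGFP cells and 5014 in untreated cells. All 3 arrays differed in that order, and DGK-zeta cells were 1.36-fold below EGFP and 1.62-fold below untreated cells. Bub1b, the checkpoint protein BubR1, had 867 in DGK-zeta cells, 1122 in EGFP cells and 1210.3 in untreated cells, with ratios of -0.37 over EGFP and -0.48 over untreated cells. Bub1 and Mad2l1, checkpoint components at the kinetochore, were higher in DGK-zeta cells, but by less than the SD of a single probe set in both comparisons. Bub1 had 1947 in DGK-zeta cells against 1562 in EGFP and 1473 in untreated cells, log2 ratios of 0.32 over EGFP and 0.40 over untreated cells. Mad2l1 had 4612 in DGK-zeta cells against 3604 in EGFP and 3569.7 in untreated cells, 1.28-fold above EGFP and 1.29-fold above untreated cells. Cdc20, the activator of the anaphase-promoting complex, gave log2 ratios against EGFP of 0.29, -0.30 and -0.02 from its 3 probe sets. Pttg1, which encodes securin, stayed within 1.06-fold in both comparisons by its brightest set, while its other sets had log2 ratios of 0.25 and 0.26 over EGFP. The brightest had 9303 in DGK-zeta cells, 9195 in EGFP cells and 9844 in untreated cells. By their brightest sets the remaining Bub3, Ttk and Cdca3 lay between -0.26 and 0.30 in both comparisons.

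Kinetochore genes held both the highest member of the list and some of the lowest. Against EGFP 1 of 5 measured members (6 listed) lay below 0, with a median of 0.08. Against untreated cells 4 of 6 lay below 0, with a median of -0.17. Nuf2 and Spc25 encode subunits of the same Ndc80 complex, which binds spindle microtubules, and they stood on opposite sides. Nuf2 had a signal of 410.0 in DGK-zeta cells, 722 in EGFP cells and 671 in untreated cells. It was the 1 member at least 1.5-fold lower than on both other arrays, which held for 6.43% of all genes. It was 1.76-fold below EGFP and 1.64-fold below untreated cells, and it has no second probe set here. Spc25 had 1794 in DGK-zeta cells, 1178 in EGFP cells and 1116 in untreated cells, 1.52-fold above EGFP and 1.61-fold above untreated cells, the 1 member at least 1.5-fold above both, beside 2.18% of all genes. Its other probe set was under the floor on every array. No member stood 2-fold below both other arrays or 2-fold above both, beside 1.42% and 0.272% of all genes. Ndc80, a further subunit, had 474 in DGK-zeta cells, 464 in EGFP cells and 580 in untreated cells (log2 ratios of 0.03 over EGFP and -0.29 over untreated cells). Cenpe, a kinesin that carries chromosomes to the spindle equator, was measured in untreated cells alone, at 258, with 5.84 in DGK-zeta and 59.7 in EGFP cells. It was therefore at least 2.40-fold lower than in untreated cells on both transfected arrays, with no ratio between those. Cenpf, a large kinetochore protein of late G2, had 1664 in DGK-zeta cells, 1296 in EGFP cells and 1234 in untreated cells by its brightest set (log2 ratios of 0.36 over EGFP and 0.43 over untreated cells), but -0.37 over EGFP and -0.14 over untreated cells by a set near the floor. Cenpa, the centromeric histone, differed by less than 0.1 on the log2 scale, at 1968 in DGK-zeta cells, 1863 in EGFP cells and 2041 in untreated cells.

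**Figure D3:**
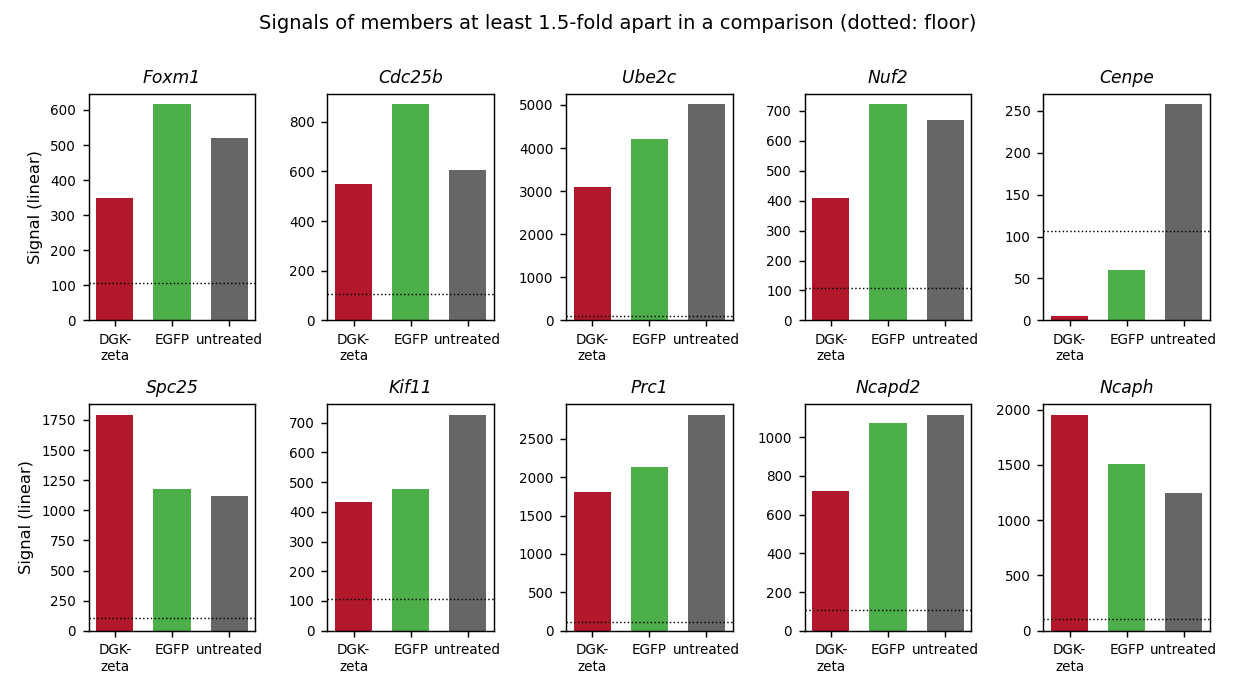
Linear signal (y axis) in DGK-zeta, EGFP and untreated cells of the 10 members at least 1.5-fold apart in any comparison, each bar being 1 array. By these brightest sets Spc25 and Ncaph were highest in DGK-zeta cells, and all the others shown were lowest there. The dotted line is the floor of 107, which Cenpe reached in neither transfected culture.

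Spindle genes were close to even against EGFP, with 2 of 6 below 0 and a median of 0.06, and against untreated cells, with 3 of 6 below 0 and a median of -0.04. Kif11, the motor that pushes spindle poles apart, had a signal of 434 in DGK-zeta cells, 477 in EGFP cells and 727 in untreated cells. Both transfected cultures were low, DGK-zeta cells 1.68-fold and EGFP cells 1.52-fold below untreated cells, and DGK-zeta cells just 1.10-fold below EGFP. The other sets of Kif11 gave -0.26 and -1.03 for DGK-zeta over untreated and -0.35 and -0.67 for EGFP over untreated cells, so all 3 sets were low in both. Kif2c, a kinesin that takes microtubules apart, had 1487 in DGK-zeta cells, 1280 in EGFP cells and 1271 in untreated cells by its brightest set, ratios of 0.22 over EGFP and 0.23 over untreated cells. The next set had 374 in DGK-zeta cells, 507 in EGFP cells and 680.5 in untreated cells. The dimmest measured set had 147 in DGK-zeta cells, 273 in EGFP cells and 364 in untreated cells. Their ratios were -0.44 and -0.89 against EGFP and -0.87 and -1.31 against untreated cells. Kif22, a chromosome-bound kinesin, likewise had 0.11 by the brightest set and -0.24 and -0.60 by the others against EGFP. Kif4, Hmmr and Nusap1, which bundle or organise spindle microtubules, lay between -0.17 and 0.19 by their brightest sets in both comparisons.

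Cytokinesis genes had 3 of 6 below 0 against EGFP, with a median of 0.02, and 4 of 6 below 0 against untreated cells, with a median of -0.28. In EGFP cells all 6 lay below untreated cells, with a median of -0.28, beside 46.3% of all genes as deposited. This count stood at 6 of 6 with each of the 4 scalings, though equal medians of all named sets also put the median of all genes below 0, at -0.08. All 6 lay below the median of all genes with each scaling too. Prc1, which bundles the microtubules of the spindle midzone, had a signal of 1810.5 in DGK-zeta cells, 2133 in EGFP cells and 2813 in untreated cells. DGK-zeta cells were 1.55-fold below untreated and 1.18-fold below EGFP cells, and the second set, at 1184 in DGK-zeta cells, 1595 in EGFP cells and 2047 in untreated cells, gave the same order. Racgap1, the GTPase-activating subunit of centralspindlin, had 2109.9 in DGK-zeta cells, 2585 in EGFP cells and 3108 in untreated cells, with ratios of -0.29 over EGFP and -0.56 over untreated cells, but its other set gave 0.06 over EGFP and -0.17 over untreated cells. Its partner in centralspindlin, Kif23, had 0.22 over EGFP and -0.07 over untreated cells. Kif20a, a midzone kinesin, had 1284 in DGK-zeta cells, 1443 in EGFP cells and 1807 in untreated cells (ratios of -0.17 over EGFP and -0.49 over untreated cells). Ect2, the exchange factor that activates RhoA at the cleavage furrow, was high, at 1722 in DGK-zeta cells against 1177 in EGFP and 1199 in untreated cells, 1.46-fold above EGFP and 1.44-fold above untreated cells. Anln, a scaffold of the contractile ring, had ratios of 0.22 over EGFP and 0.15 over untreated cells.

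Genes of chromosome structure had 2 of 6 below 0 against EGFP, with a median of 0.11, and 3 of 6 below 0 against untreated cells, with a median of 0.01. Subunits of condensin, the complex that compacts mitotic chromosomes, went different ways. Ncapd2 had a signal of 722 in DGK-zeta cells, 1073 in EGFP cells and 1117 in untreated cells, 1.49-fold below EGFP and 1.55-fold below untreated cells. Ncaph had 1955 in DGK-zeta cells, 1511 in EGFP cells and 1246 in untreated cells, 1.29-fold above EGFP and 1.57-fold above untreated cells by its brightest set. The other Ncaph set, at 674 in DGK-zeta cells, 789 in EGFP cells and 827 in untreated cells, turned these to log2 ratios of -0.23 over EGFP and -0.30 over untreated cells. Smc2 had 3073 in DGK-zeta cells, 2453 in EGFP cells and 2445 in untreated cells (0.33 in both comparisons). Smc4 gave 0.09 over EGFP and -0.12 over untreated cells by its brightest set, at 3276 in DGK-zeta cells, 3080.3 in EGFP cells and 3563 in untreated cells, and another set gave 0.04 over EGFP and -0.22 over untreated cells. A remaining Smc4 set stood far from both, at 519 in DGK-zeta cells, 1361 in EGFP cells and 4508 in untreated cells, log2 ratios of -1.39 over EGFP and -3.12 over untreated cells. Top2a, the topoisomerase that untangles sister chromatids, had 4619 in DGK-zeta cells, 4725 in EGFP cells and 5337 in untreated cells, ratios of -0.03 over EGFP and -0.21 over untreated cells. Mki67, the proliferation marker that coats mitotic chromosomes, had 3833 in DGK-zeta cells, 3509 in EGFP cells and 3481 in untreated cells, ratios of 0.13 over EGFP and 0.14 over untreated cells, each smaller than the SD of a single probe set.

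Different probe sets of a member often disagreed on direction where DGK-zeta cells were compared. Of 18 members with 2 or more probe sets measured on all 3 arrays, 7 (38.9%) had the same sign from each set for DGK-zeta over EGFP, 9 for DGK-zeta over untreated and 10 (55.6%) for EGFP over untreated. The shares over all 2251 genes with such sets were 49.8%, 47.2% and 50.6%. The 7 against EGFP were Foxm1, Ccna2, Prc1, Aurkb and Tpx2, all lower in DGK-zeta cells, and Pttg1 and Kif23, both higher. The brightest set had the highest DGK-zeta over EGFP ratio of its gene in 13 of 18 members (72.2%) and in 54.6% of all such genes. Against untreated cells this was 11 of 18 (61.1%) and 54.5%. The second-brightest sets gave the 18 members a median of -0.27 against EGFP, where all genes had -0.06. Against untreated cells their median was -0.29, where all genes had -0.08. By these sets 2 of 18 (11.1%) were at least 1.5-fold lower against EGFP, beside 15.9% of all genes. Against untreated cells 4 of 18 (22.2%) were, beside 18.1% of all genes. Aurkb, Incenp, Kif22, Kif2c, Ncaph and Cdc20 have a brightest set with the suffix _x_at, which the maker gives to sets that may also bind other transcripts. Aurkb was lower in DGK-zeta than in EGFP cells by that set (-0.23), and the higher values of the others over EGFP rest on theirs.

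**Figure D4:**
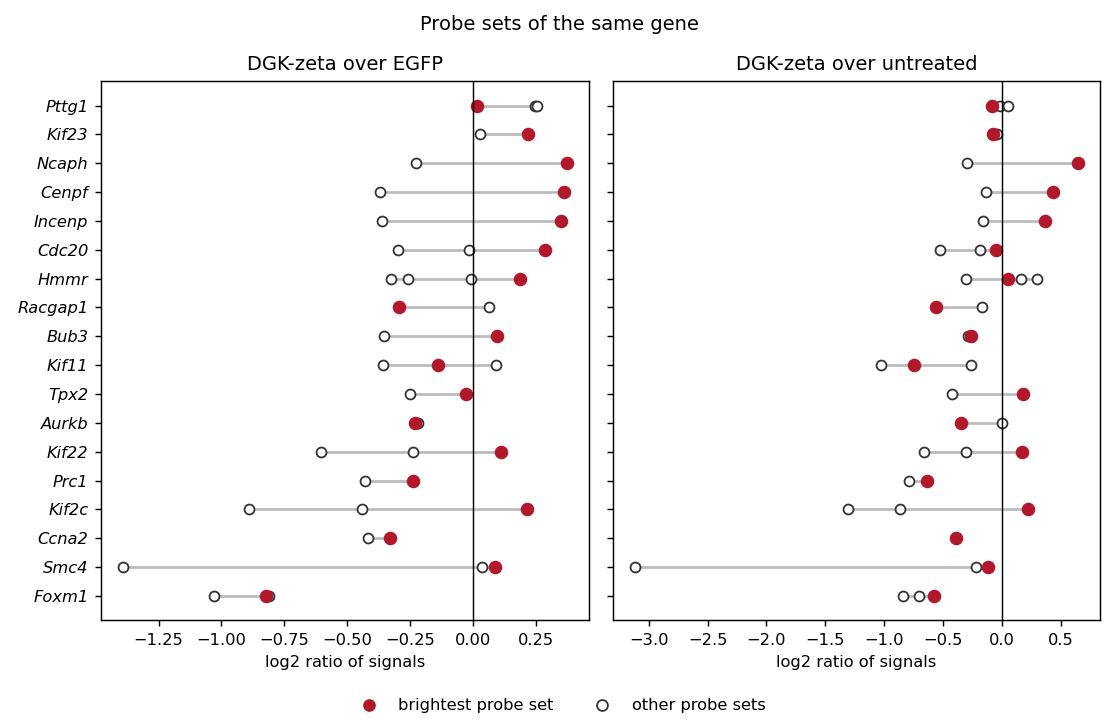
Log2 ratio (x axis) of every probe set measured on all 3 arrays for the 18 members that have 2 or more, DGK-zeta over EGFP at left and over untreated at right, with 1 array per group. Foxm1 sets all lie left of 0, while the brightest sets (red) of Kif2c, Incenp and Ncaph lie right of 0 and their other sets left of it.

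Further genes of G2 and mitosis had no common direction in DGK-zeta cells either, though those 2-fold apart there were all lower. A wider list held 90 genes that are not members, 67 of them with a named probe set. Against EGFP 7 of the 63 measured ones (11.1%) were at least 1.5-fold lower, beside 11.6% of all genes, and 1 (1.59%) was higher, beside 3.51%, with a median of 0.06. Against untreated cells 5 of 62 (8.06%) were lower, beside 9.93% of all genes, and 3 (4.84%) higher, beside 7.09%, with a median of -0.07. At a 2-fold limit 3 of 63 were lower against EGFP, beside 2.84% of all genes, and 4 of 62 against untreated cells, beside 2.8%. By that limit 0 were higher in either, beside 0.347% of all genes against EGFP and 1.34% against untreated cells. For EGFP over untreated the median was -0.10 and 44 of 63 (69.8%) lay below 0, where all genes had a median of 0.02 and 46.3% below 0. Gtse1, a microtubule-binding protein of G2, had signals of 291 in DGK-zeta cells, 626 in EGFP cells and 594 in untreated cells, 2.15-fold below EGFP and 2.04-fold below untreated cells. Fzr1, which encodes Cdh1, the activator of the anaphase-promoting complex in late mitosis and G1, had 206 in DGK-zeta cells, 464 in EGFP cells and 472 in untreated cells, 2.26-fold below EGFP and 2.30-fold below untreated cells. Both genes had level control arrays and 1 probe set each. Kifc1, a minus-end motor that focuses spindle poles, had 126 in DGK-zeta cells, 188 in EGFP cells and 377 in untreated cells, so EGFP cells lay between the others. Haspin, a histone kinase of mitosis, had 165 in DGK-zeta cells, 275 in EGFP cells and 391 in untreated cells in the same order. Mad1l1, a checkpoint protein, reached the floor in EGFP cells alone, at 233, with 87.5 in DGK-zeta and 83.6 in untreated cells.

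Promoters of the members share sequence elements that the choice of genes did not use. The CHR, whose letters are TTTGAA, is the element bound by MuvB complexes, and CCAAT is the core of the NF-Y site. Both were searched on both strands, with overlapping matches counted, in RefSeq windows of 300 bases on build GRCm38.p6, from 250 bases before to 50 after the first listed start of each gene. Of 39 members with a window, 28 (71.8%) held a CHR, 29 (74.4%) a CCAAT and 25 (64.1%) both. Among 9887 genes on the array with a window 1283 held a CHR, 38.1% a CCAAT and 5.16% both, and of all 27025 genes with one 18.1%, 37.9% and 7.12% did. The 56 genes of the wider list with a window had 28.6%, 53.6% and 17.9%. A match describes letters and is no proof of a site in use. The 28 members with a CHR had a median ratio of 0.05 for DGK-zeta over EGFP and -0.19 over untreated cells in log2 units. The 11 without one had 0.15, over 10 measured, and 0.06. EGFP over untreated cells had a similar split, with medians of -0.13 with a CHR and 0.01 without. Of those with a CHR 22 of 28 lay below 0 there, and of those without 5 of 11, beside 46.3% of all genes. Against EGFP the ratios ran from -0.57 to 0.61 with a CHR and from -0.82 to 0.49 without.

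The windows of the 3 lowest and 3 highest members by the mean of both DGK-zeta ratios, among those measured on all 3 arrays and with a window, are shown with that of Cdk1, the kinase at the centre of mitotic entry, so that the ends of the range can be read beside a well-known member. Sequences run 5′ to 3′ in the direction of the gene, and capitals mark CHR and CCAAT matches on either strand. The low ones are Nuf2 at chr1:169531415-169531714 (minus strand), Ncapd2 at chr6:125191537-125191836 (minus) and Ube2c at chr2:164769679-164769978 (plus). The high ones are Spc25 at chr2:69206164-69206463 (minus), Ect2 at chr3:27153829-27154128 (minus) and Ncaph at chr2:127133905-127134204 (minus), and Cdk1 is at chr10:69352863-69353162 (minus).
Nuf2: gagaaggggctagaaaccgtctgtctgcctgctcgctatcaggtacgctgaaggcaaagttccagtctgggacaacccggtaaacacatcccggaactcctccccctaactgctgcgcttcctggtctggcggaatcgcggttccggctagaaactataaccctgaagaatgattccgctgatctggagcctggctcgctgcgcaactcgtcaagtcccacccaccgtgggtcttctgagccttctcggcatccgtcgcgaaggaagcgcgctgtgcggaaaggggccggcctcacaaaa
Ncapd2: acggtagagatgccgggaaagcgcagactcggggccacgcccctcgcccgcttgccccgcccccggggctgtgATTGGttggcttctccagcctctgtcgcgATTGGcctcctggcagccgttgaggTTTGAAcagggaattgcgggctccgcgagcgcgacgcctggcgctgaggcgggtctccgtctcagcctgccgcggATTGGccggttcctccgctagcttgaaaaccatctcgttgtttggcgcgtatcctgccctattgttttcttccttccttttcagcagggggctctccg
Ube2c: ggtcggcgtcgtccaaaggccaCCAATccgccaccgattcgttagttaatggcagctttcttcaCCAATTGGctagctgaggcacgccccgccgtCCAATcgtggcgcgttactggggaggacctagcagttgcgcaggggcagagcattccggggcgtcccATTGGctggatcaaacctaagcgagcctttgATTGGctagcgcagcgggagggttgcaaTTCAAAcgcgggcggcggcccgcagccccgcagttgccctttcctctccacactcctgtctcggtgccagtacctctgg
Spc25: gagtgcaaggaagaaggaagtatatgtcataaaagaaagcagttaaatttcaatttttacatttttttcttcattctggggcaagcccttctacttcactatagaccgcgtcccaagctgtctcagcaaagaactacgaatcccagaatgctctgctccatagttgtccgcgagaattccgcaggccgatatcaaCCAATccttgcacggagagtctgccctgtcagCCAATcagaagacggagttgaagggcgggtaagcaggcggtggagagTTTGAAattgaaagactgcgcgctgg
Ect2: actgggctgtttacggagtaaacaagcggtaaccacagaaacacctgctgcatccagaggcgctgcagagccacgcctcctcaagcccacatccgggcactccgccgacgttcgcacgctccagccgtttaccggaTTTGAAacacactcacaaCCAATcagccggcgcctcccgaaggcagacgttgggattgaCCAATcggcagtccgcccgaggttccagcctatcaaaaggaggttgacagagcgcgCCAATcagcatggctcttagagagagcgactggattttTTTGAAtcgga
Ncaph: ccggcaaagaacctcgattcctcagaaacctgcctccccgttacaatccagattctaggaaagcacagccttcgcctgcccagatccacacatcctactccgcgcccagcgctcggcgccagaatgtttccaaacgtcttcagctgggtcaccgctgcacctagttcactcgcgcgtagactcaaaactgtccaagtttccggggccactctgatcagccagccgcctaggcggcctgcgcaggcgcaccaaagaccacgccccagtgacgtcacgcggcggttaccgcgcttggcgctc
Cdk1: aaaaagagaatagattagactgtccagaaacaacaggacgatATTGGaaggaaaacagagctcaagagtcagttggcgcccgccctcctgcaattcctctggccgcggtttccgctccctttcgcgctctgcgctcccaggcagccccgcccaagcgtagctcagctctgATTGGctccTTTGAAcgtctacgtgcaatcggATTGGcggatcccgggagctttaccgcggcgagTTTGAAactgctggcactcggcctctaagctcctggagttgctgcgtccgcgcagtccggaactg
Windows with and without the elements stood at both ends of the range. Ncapd2 and Ube2c, both low in DGK-zeta cells, hold 1 CHR each with 3 and 6 CCAAT matches, and Spc25 and Ect2, both high, hold 1 and 2 CHRs with 2 and 3 CCAAT matches. Nuf2 at the low end and Ncaph at the high end hold neither in these windows. Cdk1, which lay between these ends, holds 2 CHRs and 3 CCAAT matches, and 1 pair of CCAAT matches of Ube2c on opposite strands overlaps.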

How the data were processed

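RNA of 1 sample each of DGK-zeta-transfected, EGFP-transfected and untreated C2C12 cells was biotin-labelled (one-cycle kit) and hybridised, per the labels' protocols. The authors deposited linear intensities, 1 value per probe set, and the submitters' processing notes name MAS5. The sources used here give neither its scaling target nor detection calls. The mean between the 2nd and 98th percentile was 499.9 to 500.0 on every array, so the deposited values had been scaled per array, and no further scaling was applied. MAS5 summarises the probes of each set, and shortened RNA can lower signals of sets farther from the 3′ end. The number of arrays limits the precision.

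Of 22690 probe sets 64 are controls, 20380 have 1 symbol in the platform annotation, 691 several and 1555 none, and the last 2 kinds were not used. Gene IDs were looked up in RefSeq (GRCm38.p6, names and promoters only): 20351 were found and 0 of their symbols differed. A gene is its brightest named set, by mean log2 over 3 arrays, and signals under the 50th percentile of all values (107) were set to it before log2. A median or count over a comparison covers genes that reach the floor on at least 1 of its arrays. Members and lists were chosen with earlier results of these data known. Named are members at least 1.5-fold apart in any comparison, or with measured sets whose DGK-zeta ratios differ by at least 1 on the log2 scale, main regulators, up to 3 further ones per role, and genes of the wider list at least 2-fold apart. More than 3 further members per role are printed, so that each is accounted for. Counting was tested on simulated data with less noise than the probe-set SD and larger changes than nearly all members had, in bright genes only. That checks the counting and not how reliable a 1.5-fold difference is here. Alternatives were 3 other scalings, a floor at the 25th percentile, one at the 75th, no floor, the mean over sets, the second-brightest set, no sets of suffix _x_at, _s_at or _a_at, members measured on all 3 arrays, and a 2-fold rule. Python 3.11.15, numpy 2.4.6, pandas 2.3.3 and matplotlib 3.10.9 were used.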

Additional observations from a re-analysis of the deposited data

How the results depend on the processing

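No paired analysis was possible because each group has 1 array. Over all alternatives 68 list-wide values stayed within the single-probe-set SD divided by the square root of the number of members (medians) or within 1.5 times (counts), 38 moved by more and 1 was counted as turned. That 1 does not cover every change of sign. The members' median against EGFP, 0.02 as deposited, fell below 0 with the mean over sets, the second-brightest set and without the suffixed sets. Scaling to equal medians of all named sets lifts the whole DGK-zeta array: the median of the members was 0.39 for DGK-zeta over EGFP, 0.14 for DGK-zeta over untreated, opposite to the -0.12 as deposited, and -0.20 for EGFP over untreated. The members at least 1.5-fold higher were then 11 against EGFP and 9 against untreated cells, beside 24.3% and 19.1% of all genes, those lower 0 and 1, beside 3.81% and 4.44%, and 0 were lower than both other arrays. Equal medians over measured probe sets gave medians of 0.13 and -0.028 for both DGK-zeta comparisons and 3 members higher than in EGFP cells (6.52%), beside 7.15% of all genes. Quantile normalization left 0 members lower than both. For counts below both other arrays the share of all genes was taken as deposited only, at 6.43%. Second-brightest probe sets, over 18 members, gave medians of -0.27 and -0.29 and 2 members lower than both. By these sets 0 members were higher in either, beside 5.46% of all genes against EGFP and 9.15% against untreated cells. In EGFP cells 1 (5.56%) was lower than in untreated cells, beside 3.33% of all genes. Without sets of suffix _x_at, _s_at or _a_at the medians were -0.050 and -0.26 over 32 and 33 members. Of these 0 were higher in either, beside 3.05% of all genes against EGFP and 6.39% against untreated cells. In EGFP cells 1 (3.03%) was lower than in untreated cells, beside 1.59% of all genes. The mean over sets gave a median of -0.077 against EGFP and 0 higher members in either, beside 1.62% of all genes against EGFP and 4.06% against untreated cells. A floor at the 75th percentile left 1 (2.38%), 3 (6.98%) and 0 lower members in the 3 comparisons, beside 4.75%, 5.24% and 0.885% of all genes. It left 0 below both, and a floor at the 25th or none gave 2 below both. Members measured on all 3 arrays left 1 lower in EGFP than in untreated cells (2.17%), beside 1.23% of all genes. By the 2-fold rule 0 members were higher in either DGK-zeta comparison, beside 0.347% of all genes against EGFP and 1.34% against untreated cells. Those lower were 0 against EGFP, beside 2.84% of all genes, and 1 against untreated cells, beside 2.8%. In EGFP cells 1 was lower than in untreated cells, beside 0.303%, and 0 were below both, beside 1.42%. Ncaph, higher than in untreated cells by its brightest set, stood at -0.30 by its second set and also without those suffixes. Of the values of single genes and of the wider list, 1229 moved by less than those spreads, 58 by more and 2 were counted as turned (both Ncaph). Some of the 58 changed sign as well. With the second-brightest set Cenpf over EGFP went from 0.36 to -0.37 and Cdc20 over EGFP from 0.29 to -0.30. Causes beyond the fewer probe sets or other scaling were not tested. With 1 array per group, differences near the probe-set SD of 0.40 to 0.50 cannot be told from measurement error.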
